A study of Homo sapiens with 4 samples.

Results

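The 2765 strongest accessible regions of vehicle-treated 786-O cells are described here. The assay was ATAC-seq: the Tn5 enzyme cuts exposed DNA and leaves sequencing adapters at the cuts. The authors deposited 1 list of called peaks per library. Within each list every interval was ranked by its −log10 q, the peak caller's measure of how far a peak stands above its local background. Intervals of the 4 lists that overlapped by at least 1 bp were then merged into 53572 regions. The strongest regions were chosen by −log10 q and are those whose best interval lies in the top 10% of both vehicle lists, and they make up 5.16% of all regions and 8.78% of the 31506 regions called in both vehicle lists. The other 28741 regions called in both vehicle lists serve for comparison and are called the other regions.

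786-O is a line from a human clear cell renal cell carcinoma, a kidney tumour, and is known to lack functional VHL, the protein that marks hypoxia-inducible factors for destruction. Cells were given either DMSO, the vehicle, or 5 µM ACSS2i for 24 h, with 2 libraries in each group. ACSS2i is described in the labels by this name alone, and ACSS2 is the enzyme that makes acetyl-CoA, the donor for histone acetylation, from acetate. All groups share 1 cell line, and nothing in the labels says whether replicates came from separate cultures. A peak list from many cells cannot tell a change in every cell from a change in a share of the cells.

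The vehicle lists chose the regions, so their strength in DMSO is a description and supports nothing. Their values in the ACSS2i lists were not used by the rule, but regions picked for high rank in some lists tend to rank lower in any other list, and no test of DMSO against ACSS2i was run on them. The −log10 q that an interval needed to enter the top 10% was 27.4 in DMSO replicate 1 and 57.2 in DMSO replicate 2. DMSO replicates 1 and 2 had lists of 34696 and 50294 intervals, and ACSS2i replicates 1 and 2 had lists of 16400 and 22044. Unless named otherwise, 4 values in a row follow this order of libraries. Numbers of reads were not used here. The lowest local background that the peak values imply, which moves with depth where fragments were extended alike, was 2.06, 1.75, 2.32 and 3.16 fragments per position in the same order. Fragments stands here for the peak caller's pileup counts, whose exact unit depends on caller options that are not stated.

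Open chromatin in a cell line marks 2 main kinds of DNA: promoters, where genes start, and distal elements such as enhancers, which are bound by transcription factors away from gene starts. Promoters of broadly active genes are often rich in G and C and carry short binding letters such as the GC box, bound by SP and KLF factors, and the CCAAT box, bound by the trimeric factor NF-Y. Distal elements differ more between cell types.

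The upstream sequences of the 6 strongest promoters with a printed window are shown because the CCAAT letters in this stretch differed in frequency between the strongest and weaker promoters, as described further below. Each is the 250 bases before the RefSeq gene start on GRCh38.p14, read 5′ to 3′ on the gene's strand. Capitals mark the CCAAT box (CCAAT or its reverse, ATTGG) and the GC box (GGGCGG or its reverse, CCGCCC). Positions count from the start base, which is 0, to the first base of the match.
MXD1, chr2:69914859-69915108, plus strand: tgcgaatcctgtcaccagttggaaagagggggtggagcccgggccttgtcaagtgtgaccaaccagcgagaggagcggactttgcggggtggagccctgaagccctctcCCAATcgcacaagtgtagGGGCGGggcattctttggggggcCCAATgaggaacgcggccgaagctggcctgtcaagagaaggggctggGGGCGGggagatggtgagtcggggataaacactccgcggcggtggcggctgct
PDIA4, chr7:149028491-149028740, minus strand: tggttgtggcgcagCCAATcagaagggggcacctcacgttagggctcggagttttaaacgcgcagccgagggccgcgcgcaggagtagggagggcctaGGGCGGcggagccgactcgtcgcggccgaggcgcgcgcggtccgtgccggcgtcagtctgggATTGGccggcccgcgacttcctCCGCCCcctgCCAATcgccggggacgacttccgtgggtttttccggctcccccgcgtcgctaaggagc
HMGCS1, chr5:43313413-43313662, minus strand: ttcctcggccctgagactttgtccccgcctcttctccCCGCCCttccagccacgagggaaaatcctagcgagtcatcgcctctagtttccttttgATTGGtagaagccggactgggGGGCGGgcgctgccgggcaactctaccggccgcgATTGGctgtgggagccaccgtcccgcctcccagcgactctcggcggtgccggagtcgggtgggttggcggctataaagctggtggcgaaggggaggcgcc
TMEM53, chr1:44674482-44674731, minus strand: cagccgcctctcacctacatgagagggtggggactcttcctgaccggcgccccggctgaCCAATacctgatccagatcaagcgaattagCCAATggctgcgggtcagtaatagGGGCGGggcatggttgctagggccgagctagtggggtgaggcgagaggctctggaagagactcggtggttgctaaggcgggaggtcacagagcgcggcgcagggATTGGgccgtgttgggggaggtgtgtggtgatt
SLC2A8, chr9:127396919-127397168, plus strand: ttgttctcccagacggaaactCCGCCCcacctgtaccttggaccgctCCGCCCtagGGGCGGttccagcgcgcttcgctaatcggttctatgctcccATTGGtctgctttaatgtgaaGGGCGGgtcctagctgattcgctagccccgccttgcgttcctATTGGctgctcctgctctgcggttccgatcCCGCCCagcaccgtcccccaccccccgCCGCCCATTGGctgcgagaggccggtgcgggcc
PNPLA8, chr7:108526136-108526385, minus strand: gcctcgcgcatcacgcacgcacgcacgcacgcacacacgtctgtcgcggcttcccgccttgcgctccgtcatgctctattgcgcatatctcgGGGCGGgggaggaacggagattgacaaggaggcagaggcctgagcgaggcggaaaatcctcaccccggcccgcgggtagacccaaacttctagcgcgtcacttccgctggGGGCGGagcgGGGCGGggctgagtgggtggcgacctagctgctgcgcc

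The 6 promoters share GC-rich DNA and at least 1 GC box, and 5 of them hold 2 or 3 CCAAT boxes. MXD1, a repressor that competes with MYC for the partner MAX, has CCAAT boxes at −141 and −100, and its peak summit lay at −392, −390, −392 and −376 bp in the 4 libraries. PDIA4, a disulfide isomerase of the endoplasmic reticulum, has 3, at −236, −90 and −58, with summits at −205, −221, −184 and −308 bp. HMGCS1, an early enzyme of cholesterol synthesis, has CCAAT boxes at −155 and −100, and its summits lay further upstream, at −245, −264, −304 and −299 bp. SLC2A8, a sugar transporter, has 3 at −153, −90 and −27, and its summits lay at −162, −150, −154 and −86 bp. TMEM53 has 3 at −191, −161 and −33, with summits at 1, 37, −42 and 10 bp. PNPLA8, a phospholipase, has no CCAAT in this stretch and 3 GC boxes, and its summits lay at −80, −45, −67 and −96 bp.

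Nearly every one of the strongest DMSO regions was also called after ACSS2i, and 33.2% of them ranked in the top 10% of both ACSS2i lists. Of the 2765, 2742 (99.2%; exact Clopper-Pearson 95% interval 98.8 to 99.5) were called in both ACSS2i lists, against 42.2% of all regions called in both DMSO lists. A further 18 were called in ACSS2i replicate 2 alone and 3 in ACSS2i replicate 1 alone. The remaining 2 were called in neither, a state that holds for 33.5% of all regions of both DMSO lists. In the ACSS2i lists 917 (interval 31.4 to 35.0%) ranked in the top 10% of both, where 3.35% of all regions of both DMSO lists rank. Another 939 ranked in the top 10% of 1 ACSS2i list and 909 in that of neither, while 7 ranked below the median of both lists. Seen from the other side, 1062 regions ranked in the top 10% of both ACSS2i lists, and 917 (86.3%) of these were among the 2765. These intervals cover counting error only. They treat regions of the same libraries as independent and do not measure the spread between libraries.

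The share in the top 10% of both ACSS2i lists depended on how lists of unequal length were handled. It was 57.3% when every list was reduced to the length of the shortest, and 967 regions then qualified as strongest. With 1 list left out, it was 19.8% when DMSO replicate 1 was dropped (5028 regions then qualified) and 27.5% when DMSO replicate 2 was. Against ACSS2i replicate 2 alone it was 56.3%, and against ACSS2i replicate 1 alone 44.0%.

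Rank in the ACSS2i lists followed rank in the DMSO lists within the set. The median percentile of −log10 q, where 100 is the strongest interval of a list, was 88.2 in ACSS2i replicate 1 and 91.7 in ACSS2i replicate 2. The other regions had medians of 45.3 and 49.6 where they were called. When the 2765 were split into 4 equal groups by their mean DMSO percentile, 8.96%, 17.4%, 36.8% and 69.6% from the weakest to the strongest group were in the top 10% of both ACSS2i lists. Spearman's rank correlation of −log10 q across these regions was 0.46 between the DMSO lists, 0.51 between the ACSS2i lists and 0.45 to 0.53 between a DMSO and an ACSS2i list. It is given as a description, since regions share a library and its depth. The rule narrowed the range of −log10 q in the DMSO lists, so the value between them is not comparable with the others. In the other regions, where called, it was 0.73 between the DMSO lists and 0.46 between the ACSS2i lists. Between a DMSO and an ACSS2i list it was 0.45 to 0.60 there.

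**Figure D1:**
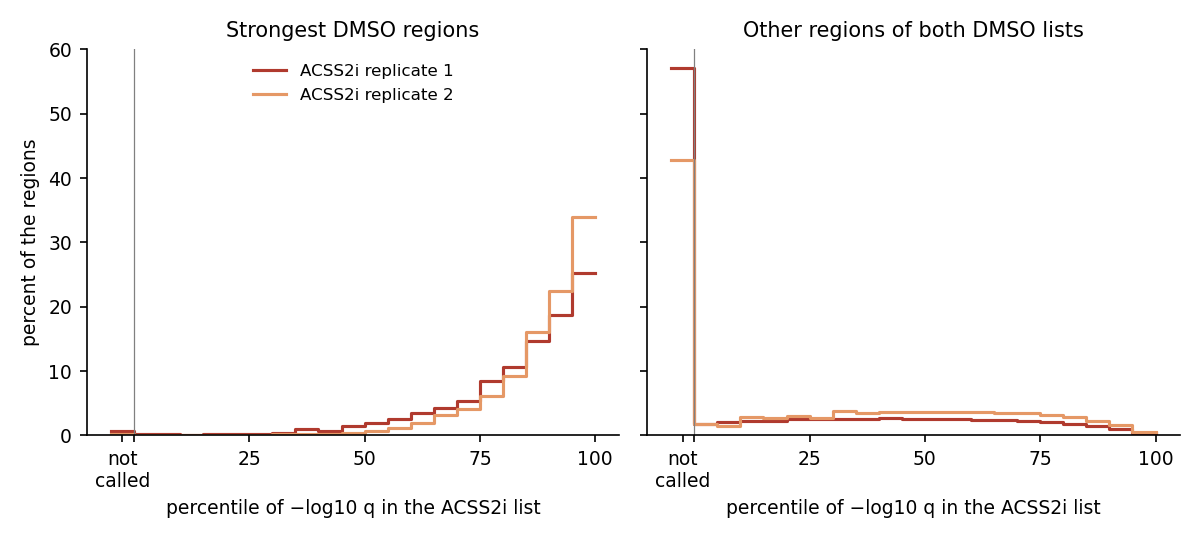
Percent of regions (vertical axis) by percentile of −log10 q in each ACSS2i list (horizontal axis, bins of 5, with regions not called at the far left), for the 2765 strongest DMSO regions on the left and the other regions of both DMSO lists on the right. The strongest regions pile up at the right end, with medians of 88.2 and 91.7, while many other regions were not called.

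The same readout was taken with regions chosen in 1 list at a time. The 3469 regions in the top 10% of DMSO replicate 1 had a median percentile of 95.4 in DMSO replicate 2, of 85.9 in ACSS2i replicate 1 and of 89.6 in ACSS2i replicate 2. Of them 79.7% were in the top 10% of DMSO replicate 2, 37.6% in that of ACSS2i replicate 1 and 48.3% in that of ACSS2i replicate 2. The 5027 regions in the top 10% of DMSO replicate 2 had a median percentile of 91.2 in DMSO replicate 1 (55.0% in its top 10%), of 80.7 in ACSS2i replicate 1 and of 86.2 in ACSS2i replicate 2. Regions chosen in the ACSS2i lists did not hold best in their own group: of the 1638 top regions of ACSS2i replicate 1, 64.8% were in the top 10% of ACSS2i replicate 2, 79.6% in that of DMSO replicate 1 and 86.0% in that of DMSO replicate 2. Of the 2205 top regions of ACSS2i replicate 2, 48.2% were in the top 10% of ACSS2i replicate 1, 76% in that of DMSO replicate 1 and 86.3% in that of DMSO replicate 2. A longer list has a larger top 10%, which moves each of these shares.

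The fold enrichment of a peak is its height over local background within 1 library, as the authors deposited it. Its median over the strongest regions was 8.81 in DMSO replicate 1, 11.6 in DMSO replicate 2, 6.47 in ACSS2i replicate 1 and 6.34 in ACSS2i replicate 2. The other regions had medians of 5.37, 7.93, 4.52 and 4.30, so folds were lower in both ACSS2i lists there too. In 2387 of the 2742 regions called in all lists (87.1%) both ACSS2i folds lay below both DMSO folds, which is so for 82.2% of all regions called in the 4 lists. The rule chose on DMSO strength, and nothing is read from that difference. Both ACSS2i folds lay above both DMSO folds in 4 regions (0.146%), against 0.383% of all regions called in the 4 lists.

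**Figure D2:**
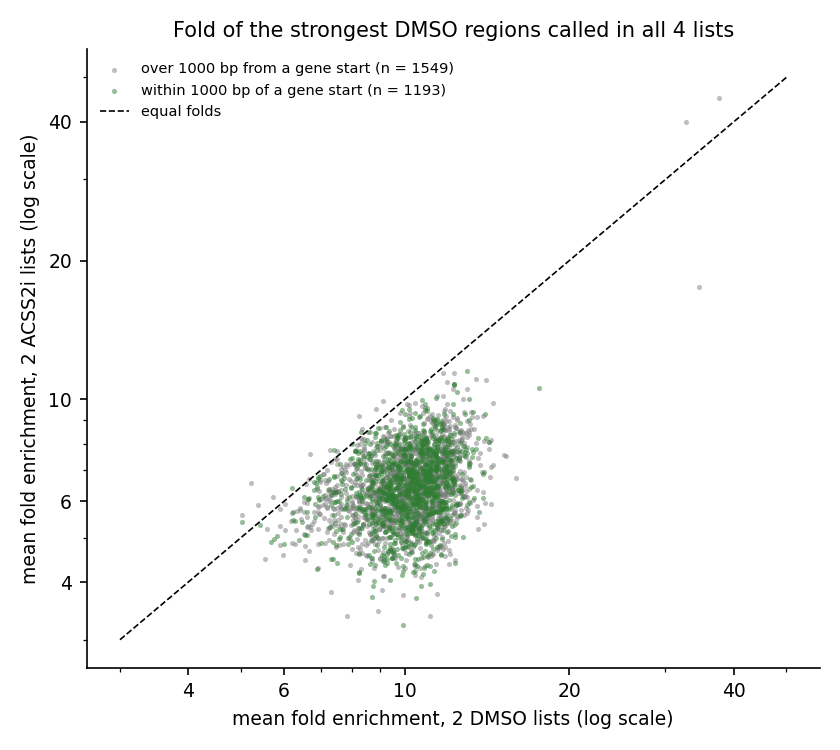
Mean fold enrichment of the 2 DMSO lists (horizontal, log scale) against that of the 2 ACSS2i lists (vertical, log scale) for the 2742 strongest DMSO regions called in all 4 lists. Points are regions, green within 1000 bp of a protein-coding gene start and grey elsewhere, and the dashed line marks equal folds. Most points lie below the line and 3 stand apart at the upper right.

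The 4 exceptions were of 2 kinds. A region at chr17:26603696-26604299, whose nearest protein-coding start is that of WSB1 at 689.8 kb, had folds of 35.9 and 39.5 in DMSO against 47.4 and 43 in ACSS2i and ranked 2, 7, 1 and 1. A region at chr1:125180070-125180404, 3783 kb from the nearest protein-coding start, had folds of 33.6 and 31.7 in DMSO against 43.1 and 37.1 in ACSS2i and ranked 1, 124, 2 and 2. Both narrow regions lie beside a centromere, where repeated DNA makes the placement of short reads uncertain. The other 2 were wide regions with low folds. That at chr1:15799055-15801361, 6.01 kb from UQCRHL, had folds of 4.91 and 5.53 in DMSO against 7.02 and 6.09 in ACSS2i. That at chr8:102806110-102808746, 17.6 kb from AZIN1, an inhibitor of ornithine decarboxylase antizyme, had folds of 5.04 and 5.00 in DMSO against 5.89 and 5.29 in ACSS2i. In both wide regions the highest DMSO fold and the lowest ACSS2i fold were close.

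One more region had folds above 20 in DMSO. It lies inside ANXA8, an annexin gene with a near-identical copy, so reads may be shared between copies (chr10:47988111-47989367). Its folds were 31.1 and 38.0 in DMSO against 16.0 and 19 in ACSS2i, and it ranked 3, 4, 21 and 6. In the rest of the set no fold exceeded 17.7 or 19.5 in the DMSO lists, or 12.5 or 13.9 in the ACSS2i lists. These 3 regions stand apart from the rest in the DMSO folds.

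The strongest regions were wider and more often had several summits than the other regions. Median widths were 1021 and 1116 bp in DMSO and 692 and 833 bp in ACSS2i, against 568 and 744 bp, and 388 and 481 bp, for the other regions. More than 1 summit was called in 38.7% and 39.0% of them in DMSO and 38.5% and 40.4% in ACSS2i, and in 25%, 34.8%, 16.4% and 24.6% of the other regions. The height of the best summit, recovered from the deposited values, had a median of 63 and 121 fragments in DMSO and 32 and 45 in ACSS2i. Width and summit number rise with signal, so in the DMSO lists they are not independent of the rule. Summits kept their place: between the DMSO lists they lay a median of 31 bp apart (44 bp in the other regions), and between a DMSO and an ACSS2i list 36 to 42 bp (52 to 63 bp).

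The widest region covered 4129 bp between protein-coding gene spans, 91.1 kb from DNAH5, a dynein heavy chain gene of cilia. It had 8 summits in each DMSO list, and 1 and 7 in the ACSS2i lists, with folds of 6.37 and 6.86 in DMSO against 6.33 and 4.77 in ACSS2i. The second widest, 4031 bp, spans the start of NDRG1, a hypoxia-induced gene, and the third, 3860 bp, lies inside HIPK2, a kinase gene. Many summits also marked the starts of GPX4, the enzyme that reduces lipid peroxides, with 6, 6, 3 and 2, and of WDR74, with 4, 8, 4 and 4.

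More of the strongest regions than of the other regions lay at gene starts in the full lists, but not by much in lists of equal length. A protein-coding start lay within 1000 bp of 1204 of them (43.5%), against 31.4% of all regions of both DMSO lists and 30.2% of the other regions. A further 92 lay near the start of a long noncoding RNA gene alone, 742 inside a protein-coding gene span and 727 between such spans. A region between spans can therefore lie inside a long noncoding RNA gene. Starts of long noncoding RNA genes came from promoter windows alone, so genes without a window could not be counted among the 92. The distance to a protein-coding start exceeded 10 kb for 1278 (46.2%; other regions 55.7%) and 100 kb for 313 (11.3%; other regions 16.9%). A start was inside 1168 regions, and starts of at least 2 genes were inside 220. The 2 sets differ in width, and a wider region meets a start more easily. Their role in this difference was not tested. The share near a start was 43.8% against 41.9% of the other regions in lists of equal length. It was 49% against 20.7% without DMSO replicate 1 and 40.7% against 28.5% without DMSO replicate 2. Genes with no RefSeq promoter window, among them all those of chromosome 8, were placed by either end of their span, so some of these starts may be gene ends. With windowed starts alone, an alternative added after seeing the data, the shares were 37.5% and 25.5%.

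A smaller share of the regions at gene starts than of the rest of the set was in the top 10% of both ACSS2i lists. In each of the 4 groups by DMSO strength this share was lower at starts, at 7.52%, 16%, 34.3% and 64.4% against 10.1%, 18.3%, 38.9% and 73.5% elsewhere. Of the regions at protein-coding starts 99.1% were called in both ACSS2i lists and 30.6% were in the top 10% of both. For regions inside protein-coding gene spans these shares were 99.2% and 36.3%, and for those between such spans 99.6% and 33.6%. By median percentile, the gap lay mainly in ACSS2i replicate 1, with 86.7 at starts, 89.8 inside these spans and 88.6 between them. In ACSS2i replicate 2 these medians were 91.5, 91.8 and 91.5. In groups 2 and 3 of the 4 by DMSO strength, medians in ACSS2i replicate 2 were higher at starts, 89.4 and 93.3 against 88.6 and 93.1 elsewhere. They were lower at starts in the weakest and strongest groups. Differences between these classes were not tested.

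Most of the 20 first regions held no protein-coding start, but the share near a start did not fall steadily with rank. It was 44.2%, 40.8%, 46.5% and 42.7% in the 4 groups by DMSO strength, from the weakest to the strongest. Of the 20 regions with the highest mean DMSO percentile, 3 held a protein-coding start, those of VCPIP1, RRM2B and MXD1. The second in rank lies inside SUSD1, 132.7 kb from its start (chr9:112041563-112042624), with folds of 10.5 and 14.1 in DMSO against 12.5 and 10.3 in ACSS2i and ranks of 5, 2, 12 and 12. A region inside TRIP13, an ATPase of the spindle checkpoint and meiosis, ranked 6, 5, 11 and 23 (chr5:911669-913014). One inside ESYT2, a protein that tethers the endoplasmic reticulum to the cell membrane, ranked 10, 1, 15 and 7 (chr7:158818330-158819173). These 3 kept places within the first 25 of every list.

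Other regions of the first 20 without a start lie in or near BCAR1, AMOTL2, TBL1XR1, TSPAN2, LPCAT1, ZC3HC1, ANKRD33B, TMEM44, TOMM20, AZIN2, TRIB1 and ARSI. That of BCAR1 is only 2.07 kb from the start. That of TRIB1 is 4.99 kb from an end of its span, since chromosome 8 genes have no windowed start. A region inside BCAR1, an adaptor of integrin signalling, ranked 14, 10, 9 and 89, with folds of 10.6 and 11.8 in DMSO against 12 and 6.60 in ACSS2i. One lies 51.4 kb from AMOTL2, which binds and restrains YAP, and ranked 28, 27, 47 and 404. One 102.4 kb from TBL1XR1, a corepressor subunit, ranked 4, 60, 33 and 16. Regions near TSPAN2 and LPCAT1 lie 89.8 and 31.1 kb from those starts. The first ranked 15, 8, 13 and 8, and the second 29, 12, 115 and 79, at percentiles of 99.3 and 99.6 in the ACSS2i lists. The nearest gene is a label of position, and no target was measured.

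At gene starts the strongest regions were those of VCPIP1, a deubiquitinase, with folds of 11 and 15.1 in DMSO against 11.2 and 8.81 in ACSS2i, and of RRM2B, a p53-inducible subunit of ribonucleotide reductase, with 9.72 and 10.1 in DMSO and 9.29 and 8.11 in ACSS2i. They ranked 24, 3, 19 and 31, and 7, 45, 25 and 28. Of the promoters printed above, MXD1 had folds of 11.6 and 12 in DMSO against 8.42 and 10.2 in ACSS2i, with ranks of 16, 58, 253 and 26. PDIA4 had 11.5 and 12.2 in DMSO against 7.91 and 7.83 in ACSS2i, and HMGCS1 9.29 and 11.3 in DMSO and 7.44 and 6.49 in ACSS2i. HMGCS1 ranked 49 and 48 in DMSO and 232 and 474 in ACSS2i. SLC2A8 ranked 60, 53, 138 and 141, and PNPLA8, the promoter without a CCAAT box, 33, 103, 137 and 369. The start of BPGM, which makes the haemoglobin regulator 2,3-bisphosphoglycerate, ranked 108 and 68 in DMSO, and 17 and 22 in the shorter ACSS2i lists.

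The 2 regions called in neither ACSS2i list were among the weaker of the set by −log10 q, but not by fold. Their folds lay above the medians of the set, 8.81 and 11.6 in the DMSO lists. One, at chr22:26493664-26494108 within the spans of SRRD and TFIP11, ranked 3052 and 3247 in DMSO with folds of 10.8 and 15.2. The other, at chr15:64232174-64233124 within CSNK1G1, a casein kinase gene, ranked 3449 and 4417 with folds of 9.63 and 14.7. At the edge of the rule, the regions just inside were at ZNF782, TROAP and ZC3H4, with DMSO folds of 8.90 and 14.1, 9.61 and 12.3, and 8.27 and 10.2. Those just outside were at GCDH, AMACR and IARS1, with 8.71 and 10.1, 6.39 and 9.46, and 6.39 and 7.76.

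Summits of the strongest promoters lay further upstream of the gene start. In regions that hold a start of the promoter table the median summit position was −99.5 and −89 bp in DMSO (n = 1016 regions) and −102 and −98 bp in ACSS2i (n = 1005 and 1016). In the other regions it was −32 and −28 bp in DMSO and −39 and −31 bp in ACSS2i. The summit was upstream of the start in 80.1%, 78.4%, 78.3% and 78.9% of the strongest regions and in 59.5%, 59.5%, 58.5% and 57.6% of the others. The ACSS2i summits were not used to choose the regions and lay at the same distances.

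**Figure D3:**
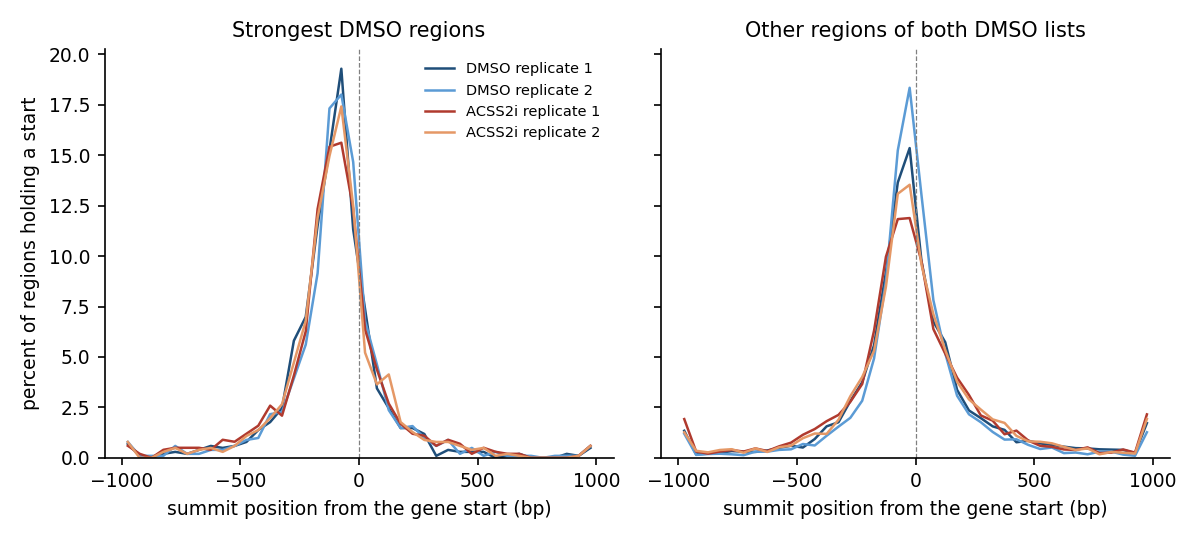
Percent of regions holding a protein-coding start (vertical axis) by position of the summit from that start in bins of 50 bp (horizontal axis, negative is upstream), for 4 libraries. The outermost bins also hold all summits further away. The strongest DMSO regions (left) peak upstream of the start in all 4 libraries, with medians from −102 to −89 bp, and the other regions (right) peak closer to it, with medians from −39 to −28 bp.

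The CCAAT box differed most in frequency among the 11 motifs searched. Windows of 300 bases, from 250 before to 50 after each RefSeq start, were searched on both strands. CCAAT was found in 55.7% of the 1482 windows whose start lies in a strongest region, in 34.5% of the 9169 windows in the other regions and in 34.7% of all 22055 windows. At least 2 were found in 31.8% and 12% of the first 2 sets. The set of 1482 covers 1179 genes, since a gene can have several starts, and the difference was not tested. The median GC content of the 2 sets of windows was 65.3% and 66.0%. The share in the strongest regions was 48.7% without DMSO replicate 1.

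The other letters differed less between these sets, and no difference was tested. The GC box was found in 76.5% of windows of the strongest regions and 73.5% of those of the other regions (56.3% of all windows). The ETS letters CCGGAAG, bound by ETS factors, were found in 18.6% and 21.8% (12.8% of all), and the NRF1 letters GCGCATG in 6.48% and 8.06% (5.23%). The core of the hypoxia response element, ACGTG, which HIF binds, was found in 27.9% and 27.5% (23%), and the E-box CACGTG, which overlaps it, in 10.3% and 10.1% (8.32%). AP-1 letters TGANTCA were found in 4.66% and 4.80% (6.15%), TEAD letters GGAATG in 10.5% and 10.4% (12.2%), and YY1 letters AAGATGG in 7.76% and 7.89% (6.05%). The cAMP response element TGACGTCA was found in 2.70% and 3.30% (2.25%) and the letters TATAAA, which TBP binds, in 3.04% and 4.47% (9.49%). A match describes letters and shows no bound factor.

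CCAAT boxes in the strongest promoters were most frequent upstream of the start. They started between −100 and −51 in 30.6% of windows, in the 50 bases before those in 21.5% and between 0 and 49 in 3.64%, against 15.6%, 9.01% and 2.58% in the other regions. Where the summit fell in the window, a CCAAT lay within 50 bp of it in 40.7% and 42.5% of windows of the strongest regions in DMSO. The shares in ACSS2i were 39.8% and 38.8%. For windows of the other regions these shares were 21.9%, 21.4%, 24.2% and 22.8%. Windows without any CCAAT are included, so the shares also carry the difference in CCAAT frequency. In DMSO replicate 1, 576 of 906 such windows held a CCAAT, against 1893 of 4646 for the other regions. Counting only windows with a CCAAT, its median distance from the summit was 35, 32, 36 and 35.5 bp. The other regions had median distances of 46, 43, 43 and 46 bp. These counts, and those by strength in the next paragraph, were chosen after the shares above had been seen.

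The frequency of CCAAT rose with strength over all accessible promoters. With windows in regions of both DMSO lists split into 10 equal groups by mean DMSO percentile, it was 29.4%, 28.0%, 28.5%, 33.8%, 33.6%, 35.9%, 36.1%, 41.3%, 50.9% and 57.2% from the weakest to the strongest. The same split by mean percentile in the ACSS2i lists, over regions called in both, gave 30.3% in the weakest and 56.8% in the strongest group. The GC box went from 67.6% to 77.7% by DMSO strength and was 74.8% and 75.2% in the weakest and strongest groups by ACSS2i strength. Among the windows of the strongest DMSO regions, CCAAT was found in 58.0% of the 460 in the top 10% of both ACSS2i lists and in 54.6% of the remaining 1022.

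**Figure D4:**
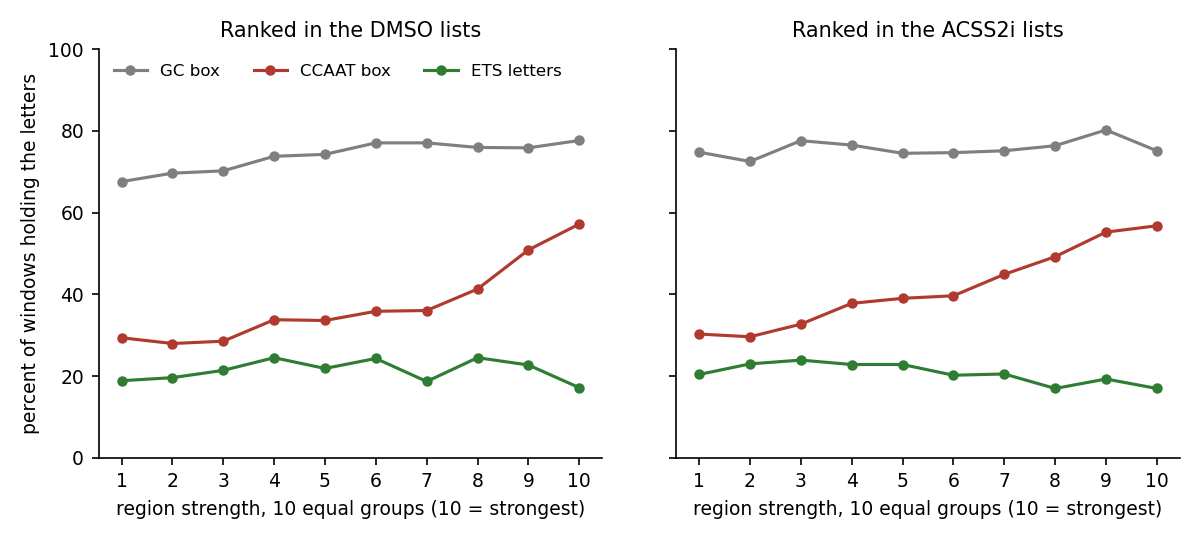
Percent of promoter windows holding a CCAAT box, a GC box or ETS letters (vertical axis) by region strength in 10 equal groups (horizontal axis, 10 is strongest), ranked in the DMSO lists on the left and in the ACSS2i lists on the right. CCAAT rises from 29.4% to 57.2% on the left and from 30.3% to 56.8% on the right, while the ETS letters were at 18.9% and 17.2% in the first and last group on the left.

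By gene, 1439 of 20037 protein-coding genes (7.18%) had one of the strongest regions within 1000 bp of a start, or 13.5% of those with any region of both DMSO lists there. Among 13 gene lists the share was highest for cell cycle genes, 6 of 30 (4 at a windowed start). That place depended on genes placed by a span end. At windowed starts alone, mesenchymal and matrix genes had a larger share, 5 of 34. The cell cycle genes included CDC20, which activates the anaphase-promoting complex, and the replication helicase subunits MCM7 and MCM3. CDK2 counted through the end of its span: its region covers a start of RAB5B, a GTPase of endosomes, lies outside CDK2, and ranked 97, 667, 319 and 111. The percentiles of MCM3 were 93 and 96.9 in DMSO and 69.4 and 80.0 in ACSS2i. Constitutive genes had 5 of 30 (3), including PPIA, GAPDH, YWHAZ and B2M, and cytosolic ribosomal protein genes 5 of 77 (3), including RPL7, RPL37, RPL27 and RPL41. The percentiles of B2M, which encodes the light chain of class I antigen presentation, were 91.2 and 95 in DMSO and 44.4 and 69.9 in ACSS2i.

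Of the 6 genes the study concerns, 1 had such a region, ARNT, the partner of HIF-1α and HIF-2α. Its folds were 10.0 and 11.8 in DMSO against 4.88 and 7.03 in ACSS2i, and it ranked 1228, 3792, 7978 and 2574. The ACSS2i replicates differed, with percentiles of 51.4 and 88.3. A distal region 223.2 kb from EPAS1, which encodes HIF-2α, was in the set, inside PRKCE (chr2:46072487-46074227), with folds of 9.49 and 11.7 in DMSO against 7.47 and 6.77 in ACSS2i.

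HIF targets had 4 of 29 at a start (13.8%, beside 7.18% of all protein-coding genes), 3 of them at a windowed start. They were ALDOA, a glycolytic enzyme, NDRG1, P4HA1, a collagen prolyl hydroxylase, and DDIT4, an inhibitor of mTORC1. NDRG1 ranked 1215 and 369 in DMSO and 361 and 175 in ACSS2i. ALDOA ranked 633, 1138, 734 and 1083, and DDIT4 1521, 1966, 798 and 723. Set against the length of each list, the percentiles of NDRG1 were 96.5 and 99.3 in DMSO against 97.8 and 99.2 in ACSS2i. At any distance, 23 strongest regions had a HIF target as nearest start, 15% of the 153 regions of both DMSO lists with such a start, beside 8.78% over all regions. These 23 had 13 genes as nearest start, and 4 of them had NDRG1. Shares also differed by location. They were 16.5% at 40 to 150 Mb of chromosome 8 (NDRG1), 16.8% on chromosome 7 (IGFBP3), 12% at 100 to 190 Mb of chromosome 5 (STC2) and 5.95% on chromosome 11 (LDHA). The part of location in the 15% was not tested. Of the 23, 14 were over 10 kb away. A region 23.1 kb from NDRG1 ranked 8 in DMSO replicate 1 and 175, 86 and 156 in the other lists. One 126.1 kb from STC2, a secreted glycoprotein, ranked 44, 133, 111 and 54. One 56.5 kb from IGFBP3, a binding protein of insulin-like growth factors, ranked 50 and 267 in DMSO and 919 and 2340 in ACSS2i.

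Kidney lineage genes had none of the strongest regions at a start, 0 of 27, although 12 of the 27 had a region of both DMSO lists there. They were nearest to 9 distal ones, 9.09% of the 99 regions with such a start, beside 8.78% over all regions. The strongest of these lies within PAX8, the transcription factor of renal epithelium, 36.5 kb from its start (chr2:113240237-113242437). Its folds were 9.36 and 11 in DMSO against 9.18 and 6.91 in ACSS2i, and it ranked 17, 70, 45 and 206. A region within CDH2, which encodes N-cadherin, ranked 686, 722, 766 and 1061, and one 19.2 kb from KRT19, an epithelial keratin, 876, 289, 41 and 635.

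AP-1 and immediate early genes had 1 of 31 at a start, JUN, and were nearest to 16 of the strongest regions, 9.2% of the 174 regions with such a start and close to the 8.78% over all regions. One 64.6 kb from JUN ranked 637, 185, 768 and 288. TEAD and YAP targets had 1 of 24 at a start, ANKRD1, and were nearest to 13 of 135 regions (9.63%, again near that share), of which 12 were over 10 kb away, among them regions 14.9 and 22.6 kb from CCN1, a matricellular protein. The nearer ranked 103 and 128 in DMSO against 336 and 2465 in ACSS2i, and the farther 546 and 63 in DMSO and 60 and 179 in ACSS2i. Mesenchymal and matrix genes had 5 of 34 at a start, including VIM, the mesenchymal intermediate filament, TPM1, ITGAV and LAMB1. VIM had folds of 8.03 and 8.33 in DMSO against 7.87 and 6.96 in ACSS2i, and ranked 578, 2054, 366 and 951. Glycolysis genes had 2 of 21, ALDOA and GAPDH. Over all protein-coding genes the share with such a region at a start was 7.18%, or 13.5% of those with any region of both DMSO lists there. As nearest start at any distance, mesenchymal and matrix genes had 20 of 191 regions in the set (10.5%) and glycolysis genes 6 of 55 (10.9%), beside 8.78%. None of these differences was tested.

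In each list of markers of other cell types, 0 or 1 gene had one of the strongest regions at a start. Since 7.18% of all genes have one, lists of 16 or 20 genes are too short to show a lack. Kidney lineage genes also had 0 of 27. Immune markers had 0 of 16, and neuronal and muscle markers 0 of 20. Endothelial and stromal markers had 1 of 16, ACTA2, whose region also covers a start of FAS, the death receptor. Regions of both DMSO lists, strong or not, lay at 2, 5 and 3 of these starts in the same order. As nearest start at any distance, immune markers had 0 of 18 regions in the set, neuronal and muscle markers 2 of 19 (10.5%), both near MAP2, and endothelial and stromal markers 2 of 22 (9.09%), within PECAM1 and ENG, beside 8.78% over all regions. The region within PECAM1, an endothelial adhesion molecule, ranked 2119, 309, 75 and 88.

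Chromosomes differed widely in their share of strongest regions. On chromosome 7, 292 of 1738 regions of both DMSO lists (16.8%) belonged to the set, followed by chromosome 20 with 13.0% and chromosome 8 with 12.7%. On chromosome 14 it was 5 of 742 (0.674%), on X 7 of 755 (0.927%), on chromosome 18 3.15% and on chromosome 6 3.29%. The regions in the top 10% of both ACSS2i lists followed the same pattern, with 12.5% of the regions called in both lists on chromosome 7 and 0.459% on chromosome 14. When regions were ranked by fold in place of −log10 q, the share on chromosome 7 fell by this change of rule to 8.46% and that on chromosome 14 was 3.64%. On chromosome 14 it was 1.62% without DMSO replicate 2. The local background of the other regions moved with these shares. Its median in DMSO replicate 1 was 4.50 fragments on chromosome 7, 2.40 on chromosome 14 and 2.34 on X, and in ACSS2i replicate 1 it was 4.05, 2.32 and 2.32. Its part in the shares was not tested.

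**Figure D5:**
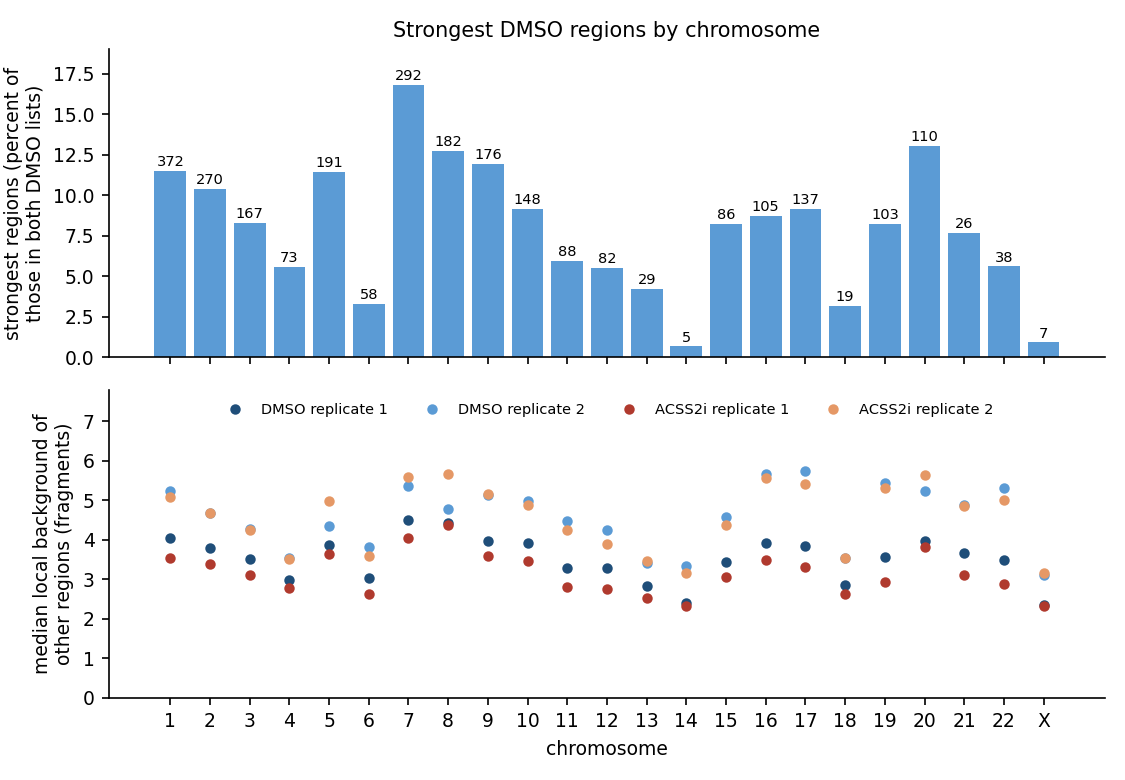
Top, strongest DMSO regions as a percent of the regions called in both DMSO lists, by chromosome, with their number above each bar. Bottom, median local background of the other regions in each library, in fragments. Chromosomes 7 (16.8%) and 14 (0.674%) lie at the ends of the range in the top panel, and chromosome 14 and X have the lowest background in the bottom panel. The Y chromosome is not plotted.

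The differences also ran within chromosomes. On chromosome 8, 1 of 333 regions (0.30%) in the first 40 Mb was in the set, and 181 of 1097 (16.5%) from 40 to 150 Mb. On chromosome 5 the share was 18.6% from 0 to 50 Mb, 0.336% (1 of 298) from 50 to 100 Mb and 12% from 100 to 190 Mb. On chromosome 9 it was 5.28% from 0 to 40 Mb and 14% from 60 to 140 Mb, and on chromosome 3 5.45% from 0 to 90 Mb and 10.2% from 90 to 200 Mb. Median background of the other regions in DMSO replicate 1 was 2.40 and 4.96 fragments in the 2 parts of chromosome 8, and 4.81, 2.06 and 4.02 in the 3 parts of chromosome 5. Its part was not tested here either. These blocks were chosen after the shares in windows of 10 Mb had been seen. Of 251 such windows with at least 50 regions, 16 held none of the set and 12 held over 20%.

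The 12 groups listed as densest within 500 kb held 7 to 15 of the set and lay on chromosomes 1, 2, 5, 7, 8, 9, 12, 17 and 20. A stretch of 374.4 kb at chr8:127809184-128183627, where MYC is the nearest protein-coding gene, held 15 of the set among 26 regions. Of the 15, 8 were in the top 10% of both ACSS2i lists. A stretch of 464.1 kb at chr5:13985598-14449701, over DNAH5 and TRIO, held 10 of 25. One at chr7:151519099-151754753, over PRKAG2, a subunit of the energy sensor AMPK, and RHEB, the GTPase that activates mTORC1, held 9 of 16. One at chr9:127244946-127735621, which includes the SLC2A8 promoter printed above, held 9 of 20. The share in the set was 8.78% over all regions. Around these 4 stretches it was 16.5% at 40 to 150 Mb of chromosome 8, 18.6% at 0 to 50 Mb of chromosome 5, 16.8% on chromosome 7 and 14% at 60 to 140 Mb of chromosome 9.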

How the data were processed

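The input was 4 ATAC-seq peak lists of the 786-O line, 2 per treatment. Per the labels' protocols, nuclei met Tn5 for 30 min and libraries were sequenced as pairs of 150 bases. Bowtie2, SAMtools 1.9, Picard 2.18.26, MACS2 2.1.2 and the build hg38 are named per the submitters' processing notes. Caller options, and the filter that the lists went through, are not stated in those sources. The deposited columns are a score per peak (not used beyond a check), a fold, which is a ratio of summit to local background, the −log10 p of the p-value and the −log10 q of the q-value, and the offset of the summit in bp. Each is the authors' own value per peak within 1 library, and the lists start at a −log10 q of 2.

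Intervals took the values of their strongest summit. Pileup and local background were solved from the deposited fold and −log10 p, with a match within 0.001 for 99.99% or more of the summits in a list. Gene starts came from RefSeq promoter windows (GRCh38.p14) for 15842 genes and from either span end for 4195 genes, 715 of them on chromosome 8, which have no window here. Exons and introns were not told apart. The 361 entries of 13 gene lists all matched. The members and lists were chosen with earlier results of these data known. Members were named by a rule: the 20 strongest, the 10 strongest over 10 kb from a start, those absent from both ACSS2i lists, the 10 strongest in ACSS2i, up to 4 genes per list, the 3 widest, the 3 with most summits and 3 on each side of the threshold. The strongest promoters, the regions with a fold above 20 or above both DMSO folds, the distal regions nearest to list genes, the blocks and the dense stretches were added after their values were seen. No test across libraries was run. Binomial intervals are exact (Clopper-Pearson, 95%). Python 3.11.15, pandas 2.3.3, numpy 2.4.6 and scipy 1.17.1 were used, and the region script was tested on simulated lists.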

Additional observations from a re-analysis of the deposited data

How the results depend on the processing

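No paired analysis was possible because the results come from no test. The lengths of the lists limit what a rank can show, and read depth was not given.

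The alternatives were a top 5%, a top 20%, lists cut to equal length, ranking by fold, a −log10 q of at least 5, ranking of every summit, and 1 library left out at a time. Where one of the results below has no value for a setting, it stayed within a limit. For shares this was the exact 95% interval, and for counts a change of under 1.5 times. For medians it was the standard deviation of the group's 2 replicates. The set held 1249, 5929 and 967 regions at a top 5%, a top 20% and equal length, and 2765 to 5028 with 1 library left out. The genes with a start there numbered 655, 3054 and 505, and 1438 to 2891. The share called in both ACSS2i lists was 99.8%, 95.7%, 99.8%, 91.8% and 98.4% at a top 5%, a top 20%, equal length, by fold and at the higher −log10 q, and 95 to 99.8% with 1 library left out. The share in the top of both ACSS2i lists was 37.1% at a top 20%, 57.3% at equal length, 22.1% by fold and 27.5% at the higher −log10 q, and 19.8 to 56.3% with 1 left out.

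The median percentile in ACSS2i replicate 1 was 93.8, 79.2, 94.8, 82.7 and 84.7 in that order of 5 settings (80.7 to 88.2 with 1 library left out), and in replicate 2 it was 95.6, 84.5, 95.2 and 88.7 for the first 4 (86.2 to 91.7). The median fold in ACSS2i replicate 1 was 7.02, 5.87, 7.19, 6.19 and 6.65, and 6.30 with every summit ranked (5.94 to 6.47), and in replicate 2 6.77, 5.77 and 6.87 for the first 3, 6.51 at the higher −log10 q and 6.16 with every summit ranked (5.87 to 6.34). By fold, median widths were 829.5 and 942 bp in DMSO and 519 and 648 bp in ACSS2i, and with 1 library left out they ranged from 1017 to 1021, 1088 to 1116, 606 to 692 and 750 to 833 bp.

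Regions chosen in DMSO replicate 1 were in the top of DMSO replicate 2 in 72.0%, 85.5%, 59.0% and 58.8% of cases at a top 5%, a top 20%, equal length and by fold, and in 82.1% with every summit ranked. The reverse gave 49.7%, 59.0%, 59.0%, 40.6% and, at the higher −log10 q, 50.2%. The share near a gene start was 40.7 to 49% with 1 library left out and 37.5% with windowed starts alone. For the other regions it was 41.9% at equal length, 33.1% at the higher −log10 q, 28.6% at a top 20%, 30.9% at a top 5%, 29.1% and 32.4% with a window narrower and wider than 1000 bp, 25.5% with windowed starts alone and 20.7 to 30.2% with 1 library left out. The share of chromosome 7 regions in the set was 9.21% at a top 5%, 28.9% at a top 20%, 19.3% with every summit ranked and 8.46% by fold, and that of chromosome 14 was 0%, 6.33% and 3.64% at a top 5%, a top 20% and by fold, 0% at equal length and 1.62% without DMSO replicate 2. CCAAT in windows of the set was 49.4% at a top 20% (48.7 to 55.6% with 1 left out), and in those of the other regions 36.2%, 32.5%, 41.3% and 36.1% at a top 5%, a top 20%, equal length and the higher −log10 q (32.3 to 35.6%). It was higher in the set than in the other regions in each of these. Dropping all contigs but chromosomes 1 to 22 and X changed no result past these limits. The cause of these shifts was not tested.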
